A study of Mus musculus with 40 samples.

Results

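The ATF4-CHOP stress regulators examined here were 10 genes, *Atf4*, *Ddit3* (which encodes CHOP), *Atf3*, *Atf5*, *Cebpb*, *Trib3*, *Nupr1*, *Chac1*, *Sesn2* and *Ddit4*, of the 55536 genes in the count tables. They were selected on their known place in the integrated stress response and on changes already seen in these libraries between the ATR inhibitor and DMSO and between knockout and WT. Values of those 2 kinds of change are therefore a description: no p-value of a member is printed for them, and counts of members past a threshold of the fit, under any setting, stand beside the share of all genes past it and support nothing. Tests are given for 2 contrasts that the choice did not name: whether the response to the inhibitor differed between genotypes, and whether the knockouts differed from each other. Both are differences between values of the kinds the choice used, so these tests are not fully free of the choice. All 10 genes passed the filter on low counts in every comparison.

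RNA was measured in mouse embryonic stem cells (mESCs), pluripotent cells of the early embryo, grown on gelatin with LIF and carrying WT *Atm*. Cells were left with DMSO or 900 nM AZD6738, an inhibitor of the DNA damage kinase ATR (ATRi), for 4 h. The genotypes were WT (2 biological replicates), *Ccnc* KO (CRISPR clones D1, G2 and H5, edited to lack Cyclin C) and *Cdk8* KO (CRISPR clones B9, H4 and C8, edited to lack the kinase that Cyclin C activates), so a replicate of a knockout is a clone and carries whatever else sets that clone apart. Libraries of the *Ccnc* KO clones were sequenced in a multiplex with the 4 WT libraries, and those of the *Cdk8* KO clones in another multiplex with the same 4 WT libraries. Both sets of comparisons thus share their WT material.

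In the integrated stress response, kinases that sense amino acid shortage, misfolded protein or other stress phosphorylate the translation factor eIF2. Most translation then falls, while translation of the *Atf4* mRNA rises. ATF4 is a bZIP transcription factor that binds DNA as a dimer, often with a C/EBP protein, at a composite C/EBP-ATF site, and activates genes of amino acid uptake and synthesis together with further regulators such as CHOP, ATF3 and TRIB3. Since ATF4 is set largely at translation, its mRNA level is not a measure of its protein. Cyclin C and CDK8 belong to the kinase module of Mediator, the complex that links transcription factors to RNA polymerase.

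RefSeq promoters (GRCm38.p6, 250 bases before to 50 after a transcription start) were found for 10 of the 10 genes, in 11 entries. The core of the composite C/EBP-ATF site, TGATGNAA with N for any base, was searched on both strands, as was the cyclic AMP response element TGACGTCA. Their fixed letters differ, so no run of bases matches both. TGATGNAA was present in 4 of the 11 promoters (36.4%), those of *Chac1*, *Nupr1*, *Trib3* and *Atf3*, and in 1304 of all 32851 promoters (3.97%). TGACGTCA was present in 0 of the 11 and in 1.79% of all. The windows of these 4 promoters, from 220 bases before to 30 after the start, are shown because they carry the motif, and 3 of them belong to the members lowest with ATRi relative to DMSO. Capitals mark the match, which in all 4 lies on the opposite strand and so reads TTGCATCA or, in *Trib3*, TTACATCA:
*Chac1* (chr2:119351022-119351271, + strand): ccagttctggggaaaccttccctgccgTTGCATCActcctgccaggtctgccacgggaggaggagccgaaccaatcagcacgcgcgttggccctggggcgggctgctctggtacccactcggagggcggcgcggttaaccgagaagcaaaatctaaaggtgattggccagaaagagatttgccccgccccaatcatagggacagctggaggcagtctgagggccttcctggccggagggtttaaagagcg
*Nupr1* (chr7:126625441-126625690, - strand): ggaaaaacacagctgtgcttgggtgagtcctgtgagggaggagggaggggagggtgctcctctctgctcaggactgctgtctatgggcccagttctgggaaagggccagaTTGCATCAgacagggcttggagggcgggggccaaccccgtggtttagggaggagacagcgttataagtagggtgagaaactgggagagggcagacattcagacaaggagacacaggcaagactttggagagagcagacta
*Trib3* (chr2:152344031-152344280, - strand): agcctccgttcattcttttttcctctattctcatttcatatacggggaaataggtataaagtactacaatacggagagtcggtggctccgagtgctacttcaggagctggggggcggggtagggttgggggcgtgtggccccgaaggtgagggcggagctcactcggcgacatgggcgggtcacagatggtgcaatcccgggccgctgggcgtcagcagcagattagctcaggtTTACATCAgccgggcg
*Atf3* (chr1:191183304-191183553, - strand): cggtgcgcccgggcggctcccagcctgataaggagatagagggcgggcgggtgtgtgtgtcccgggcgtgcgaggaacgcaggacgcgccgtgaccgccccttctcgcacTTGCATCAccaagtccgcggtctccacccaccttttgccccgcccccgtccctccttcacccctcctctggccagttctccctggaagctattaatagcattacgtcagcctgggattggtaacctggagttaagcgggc

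The match began 193 bases before the start of *Chac1*, 110 before that of *Nupr1*, 110 before that of *Atf3* and 14 after that of *Trib3*. A match describes the letters only and says nothing of binding. Among genes tested in the *Ccnc* multiplex that had a promoter entry, 2.73% held TGATGNAA in at least 1 promoter. Among the 106 genes with an entry that were called lower with ATRi and are not members, 8 held it (7.55%), and among the 44 called higher 1 did (2.27%). In the *Cdk8* multiplex the motif was held by 2 of 7 such genes called lower (28.6%) and 1 of 5 called higher (20%). The share over tested genes with an entry was 2.71% there, and sets of 7 and 5 genes are too small to compare. Of the 15 other known ATF4 targets with an entry, 5 held it (33.3%). This set overlaps the genes called lower, with *Slc6a9*, *Stc2* and *Gdf15* in both.

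Library totals lay between 30899823 and 67274049 counts. The second WT library under ATRi was left out of the fits, so that WT under ATRi was 1 library, assumed to vary like the other groups. Where WT replicate 1 was left out as well, WT had no ATRi library, and fitted changes with ATRi rest on the clones alone. Between the WT replicates, 1539 of 18577 genes differed by over 2-fold under ATRi and 1009 under DMSO in the *Ccnc* multiplex. *Ccnc* stood at 4.24 to 7.41 CPM (counts scaled to a common library size) in *Ccnc* KO libraries and 38.8 to 45.4 in WT. *Cdk8* mRNA remained at 52.4 to 64.3 CPM in *Cdk8* KO libraries against 57.2 to 78.8 in WT, where the lowest value was that of replicate 2 under ATRi and the others began at 71.1, so RNA is a weak check of that label. All 10 markers of mESCs were above 1 CPM in every library, with sums of 4439 to 5019 CPM in *Ccnc* KO against 5013 to 5389 in WT, and of 3697 to 4779 in *Cdk8* KO against 4926 to 5289 in WT. Of 6 fibroblast markers, only *Lum* was at 0 in all libraries of the *Ccnc* multiplex, and in 8 of 10 of the *Cdk8* multiplex. *Col1a1*, *Col1a2* and *Thy1* had counts in every library of both. Sums over the list were 6.51 to 23.1 CPM in knockout and 3.89 to 5.51 in WT libraries. Markers of primitive endoderm summed to 20.1 to 39.6 CPM in knockout and 8.80 to 14.3 in WT libraries. In bulk RNA, fewer cells of a type and less RNA per cell cannot be told apart.

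Per kilobase of exon, *Atf4* was the most abundant member, at 72.0 to 145 CPM per kb over the 18 libraries used, clear of *Sesn2* at 26.9 to 49.1. *Sesn2* overlapped *Ddit4* (16.6 to 40.4), *Ddit4* overlapped *Trib3* (9.52 to 30.3), and *Trib3* overlapped *Atf5* (12.1 to 21.4). *Chac1* lay at 1.41 to 10.3 CPM per kb, below every *Atf5* value. The lowest 4, *Cebpb* (1.97 to 4.10), *Ddit3* (1.84 to 3.57), *Atf3* (0.419 to 2.62) and *Nupr1* (0.360 to 2.20), overlapped their neighbours in this order, and *Atf3* and *Nupr1* rested on as few as 36 and 41 counts in a library. Sequencing the same WT library in both multiplexes moved a member by at most 0.49 on the log2 CPM scale (*Cebpb*), by at most 0.44 for *Atf3* and by at most 0.04 for *Atf4*.

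**Figure D1:**
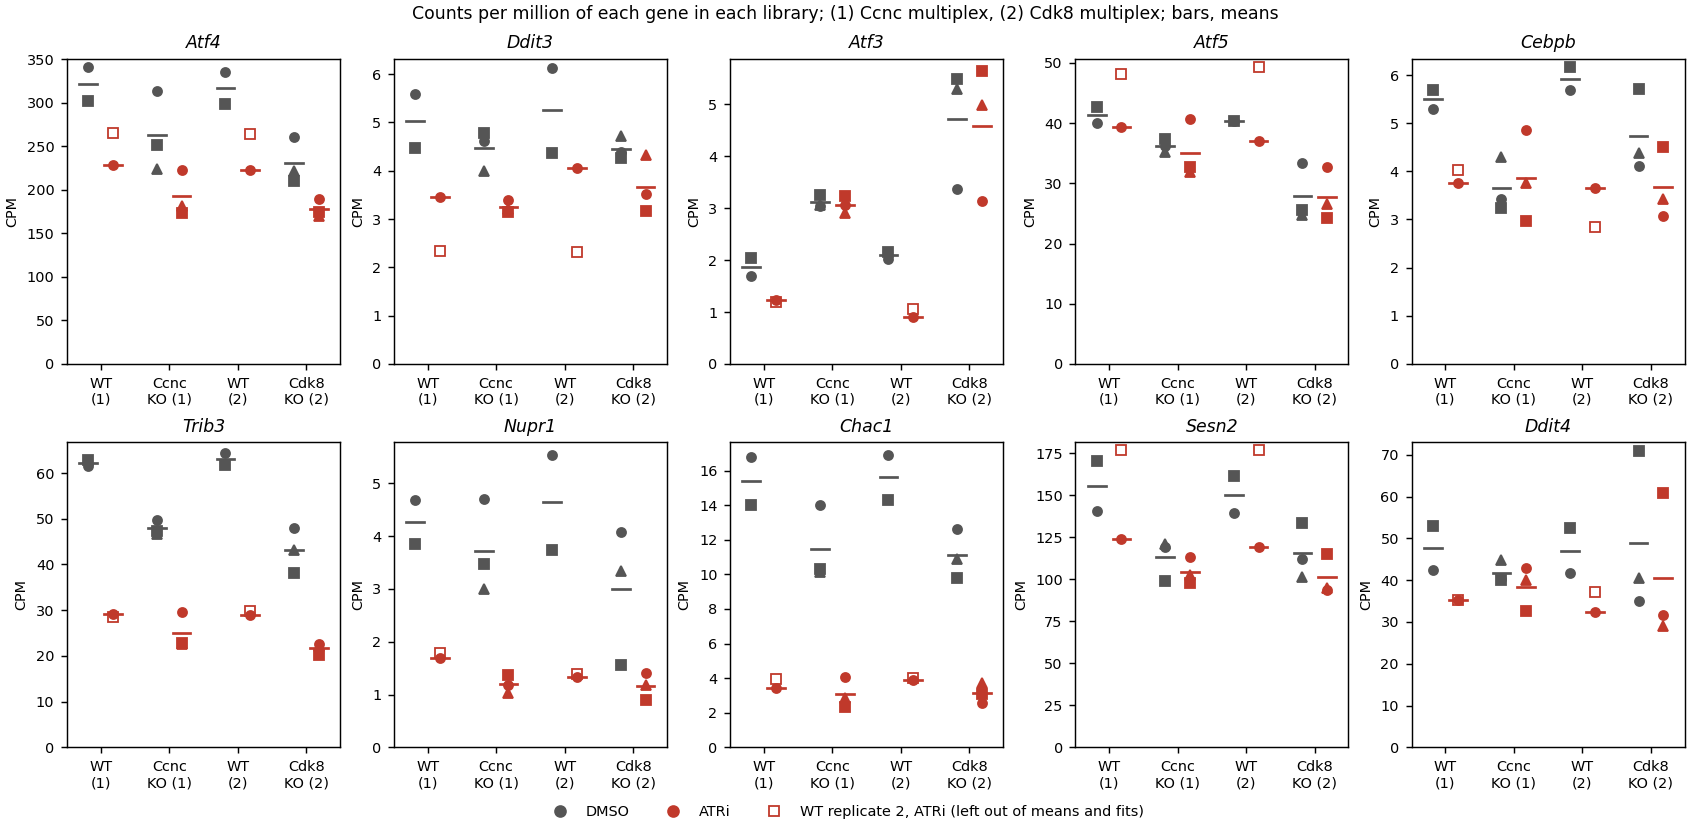
CPM (y axis, from 0) of each member in each library, by genotype within the *Ccnc* multiplex (1) and the *Cdk8* multiplex (2). Circles and squares are WT replicates 1 and 2; circles, squares and triangles are clones D1, G2 and H5 or B9, H4 and C8; bars are means, without WT replicate 2 under ATRi (open squares). *Chac1* and *Trib3* with ATRi lie below every DMSO library, while *Atf3* in the knockouts lies above every WT library.

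The first question was how the genes responded to ATRi. In the *Ccnc* multiplex all 10 members had a negative log2 fold change with ATRi beside genotype, with a median of -0.34 against -0.01 over all genes tested. In the *Cdk8* multiplex all 10 did so as well, with a median of -0.39 against -0.01. Called genes (adjusted p under 0.05, edgeR quasi-likelihood test) made up 1.11% of 18577 genes in the *Ccnc* multiplex, with 4 members among them (*Atf4*, *Trib3*, *Nupr1* and *Chac1*), and 0.0855% of 18721 genes in the *Cdk8* multiplex, with 2 members (*Trib3* and *Chac1*). The choice of the genes used these contrasts, so nothing is read from the counts.

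*Chac1* encodes an enzyme that degrades glutathione. With DMSO it stood at 16.8 and 14.0 CPM in WT replicates 1 and 2 and at 14.0, 10.3 and 10.1 CPM in clones D1, G2 and H5. With ATRi it stood at 3.42 CPM in WT replicate 1 and at 4.04, 2.31 and 2.85 CPM in the same clones. In the *Cdk8* multiplex, WT libraries gave 16.9 and 14.3 CPM with DMSO and 3.91 with ATRi in replicate 1, and clones B9, H4 and C8 went from 12.6, 9.81 and 10.9 to 2.56, 3.09 and 3.71 CPM. No ATRi library reached any DMSO library, and the level left in the 6 clones was 20.2 to 34.1% of that with DMSO. The fitted log2 fold change was -1.99 (SE 0.16) in the *Ccnc* multiplex and -1.88 (SE 0.13) in the *Cdk8* multiplex, rank 3 of the 138 and rank 2 of the 9 genes called lower.

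*Nupr1* encodes a small stress-induced chromatin protein. With DMSO it stood at 4.69 and 3.85 CPM in WT and at 4.70, 3.46 and 3.00 CPM in D1, G2 and H5. With ATRi it stood at 1.70 CPM in WT replicate 1 and 1.18, 1.38 and 1.03 CPM in the clones. In the *Cdk8* multiplex clones B9, H4 and C8 went from 4.08, 1.56 and 3.33 CPM to 1.41, 0.906 and 1.18 CPM, with WT at 5.54 and 3.74 CPM against 1.33. Every clone was lower with ATRi, but clone H4 started from the lowest DMSO level of any library, and its difference (-0.75 on the log2 scale) was the smallest of the 6. The fitted log2 fold changes were -1.53 (SE 0.17) and -1.50 (SE 0.29).

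*Trib3* encodes a pseudokinase that restrains ATF4 and CHOP and AKT signalling. With DMSO it stood at 61.5 and 62.9 CPM in WT and at 49.7, 47.3 and 46.7 CPM in D1, G2 and H5. With ATRi the values were 29.2 CPM in WT replicate 1 and 29.6, 22.8 and 22.7 CPM in the clones. Clones B9, H4 and C8 went from 48.0, 38.1 and 43.2 CPM to 22.6, 20.2 and 22.2 CPM, and WT from 64.5 and 61.8 CPM to 28.9. The groups did not overlap, and the log2 ratios of the 6 clones and of both WT replicates in the *Ccnc* multiplex lay close together, between -1.14 and -0.75 with an SD of 0.13 (n = 8). The fitted log2 fold changes were -0.99 (SE 0.08) and -1.04 (SE 0.07).

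*Atf4*, which encodes a known activator of these 3 genes, was lower by less. With DMSO it stood at 342 and 302 CPM in WT and at 314, 252 and 224 CPM in D1, G2 and H5. With ATRi it stood at 229 CPM in WT replicate 1 and at 223, 174 and 181 CPM in the clones. Clones B9, H4 and C8 went from 260, 210 and 221 CPM to 190, 174 and 170 CPM, and WT from 335 and 299 to 223 CPM. Each clone was lower with ATRi, at 69.1 to 82.8% of its DMSO level, but the groups overlapped across genotypes: WT replicate 1 with ATRi lay above H5 with DMSO, and above H4 and C8 with DMSO. The fitted log2 fold changes were -0.47 (SE 0.09) and -0.42 (SE 0.07). WT replicate 2 gave the smallest difference, 266 CPM with ATRi against 302.

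*Ddit3*, the gene of CHOP, a bZIP factor tied to cell death under lasting stress, was sparse at 121 to 296 counts per library. In the *Ccnc* multiplex it stood at 5.60 and 4.46 CPM in WT and 4.62, 4.79 and 3.99 CPM in D1, G2 and H5 with DMSO, against 3.47 in WT replicate 1 and 3.40, 3.15 and 3.20 CPM in the clones with ATRi. In the *Cdk8* multiplex WT gave 6.12 and 4.37 CPM with DMSO and 4.06 with ATRi, and clones B9, H4 and C8 gave 4.39, 4.26 and 4.73 CPM with DMSO and 3.51, 3.16 and 4.33 CPM with ATRi. All 6 clones were lower with ATRi, but C8 with ATRi stayed within the range of the DMSO clones. The fitted log2 fold changes were -0.49 (SE 0.12) and -0.31 (SE 0.14), a smaller size than that of *Trib3* or *Chac1*.

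The other 5 members had smaller or less even differences with ATRi. *Atf3*, a bZIP repressor induced by many stresses, was within -0.10 and 0.04 on the log2 scale in all 6 knockout clones. *Atf5*, a relative of *Atf4*, was lower in 4 of the 6 clones, with log2 ratios from -0.20 to 0.17. *Cebpb*, which encodes a C/EBP partner of ATF4, ranged more widely, from -0.41 to 0.49, with D1 alone higher with ATRi. Its fitted log2 fold changes were -0.13 (SE 0.16) and -0.47 (SE 0.16). The first was 0.07 without WT replicate 1, a fit in which WT had no ATRi library. *Sesn2* and *Ddit4* both encode inhibitors of the growth kinase complex mTORC1. *Sesn2* was lower in 6 of 6 clones by a small amount, with log2 ratios from -0.26 to -0.01, and *Ddit4* in 5 of 6, from -0.48 to 0.09.

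Within the knockout clones alone, called genes made up 0.0894% of 16776 genes in *Ccnc* KO, with *Trib3*, *Nupr1* and *Chac1* among them, and 0% of 17162 genes in *Cdk8* KO. In *Cdk8* KO, edgeR gave 1020 genes and 4 members an unadjusted p under 0.05, and DESeq2 called 58 genes, *Trib3* and *Chac1* among them. With the clone as a replicate block, which pairs the 2 libraries of a clone, *Ddit3* was called as the fifth in the *Ccnc* multiplex beside 2.43% of all genes, and *Atf4* as the fourth within *Ccnc* KO beside 0.65%. The block gave 7 members called in *Cdk8* KO beside 6.95% of all genes, and 8 members in the *Cdk8* multiplex with WT beside 11.3%. Without WT replicate 1, which left WT with no ATRi library, 0 of 18589 genes were called in the *Cdk8* multiplex. Without clone C8 1 of 18507 genes was called, *Chac1*, and without clone H4 29 of 18586, with 4 members. *Atf4* was not called in the *Ccnc* multiplex without clone G2 (25 of 18406 genes called) or WT replicate 1 (21 of 18097). Nor was it called with WT replicate 2 under ATRi included (41 of 17774). Within *Ccnc* KO only *Chac1* of the members was called without clone G2, where 5 of 16880 genes were.

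**Figure D2:**
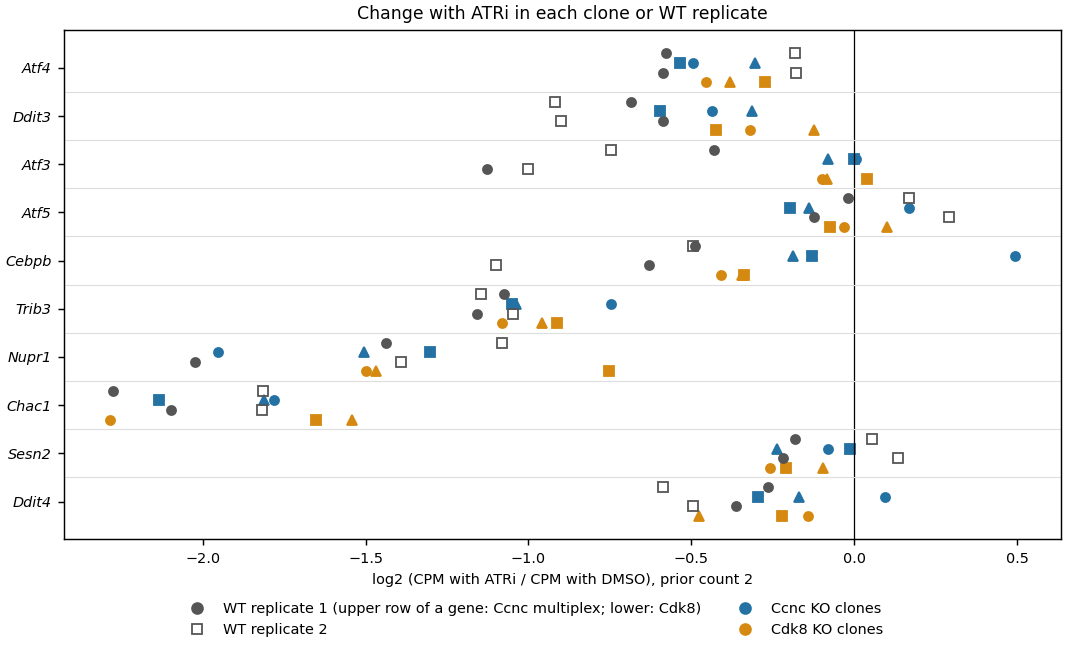
Log2 ratio of CPM with ATRi to CPM with DMSO (x axis) for each member (y axis) in each clone and WT replicate; markers as for the CPM by library, WT replicate 2 open. All points of *Chac1*, *Nupr1* and *Trib3* lie at -0.75 or lower, while those of *Atf3* in knockout clones (-0.10 to 0.04) lie apart from those in WT.

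To ask whether a knockout changed the response, an interaction term between genotype and treatment was fitted. No member was called in either multiplex, where called genes made up 0% of 18577 and 0% of 18721 genes by edgeR and DESeq2 called none. An unadjusted p under 0.05 was given by edgeR to 395 and 255 genes and to 0 of the 10 members. For *Chac1* the log2 response in *Ccnc* KO minus that in WT was 0.26 (95% interval -0.48 to 0.99), and in *Cdk8* KO 0.15 (-0.52 to 0.82). For *Trib3* the differences were 0.15 (-0.22 to 0.53) and 0.12 (-0.25 to 0.50). The intervals of *Nupr1* were wider, from -1.08 to 0.48 and from -1.02 to 1.88. A p that missed the threshold does not show that the genotypes responded alike.

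*Atf3* had the largest fitted interaction of the members with *Cdk8* KO, and *Cebpb* and *Atf3* the largest with *Ccnc* KO. The *Atf3* level in WT went from 1.69 and 2.04 CPM with DMSO to 1.24 CPM with ATRi in the *Ccnc* multiplex, and from 2.03 and 2.16 to 0.903 CPM in the *Cdk8* multiplex. WT replicate 2 under ATRi gave 1.20 and 1.05 CPM in the same order. The WT libraries of both multiplexes are the same, so the interactions with either knockout rest on shared WT material. Sequenced again, WT replicate 1 had a log2 ratio of ATRi to DMSO of -1.13 in place of -0.43. With ATRi it held 36 and 59 counts in that order. The clones did not share the lower level with ATRi: D1, G2 and H5 gave 3.05, 3.25 and 3.07 CPM with DMSO and 3.06, 3.24 and 2.90 CPM with ATRi. The interaction was 0.56 (95% interval -0.08 to 1.20) with *Ccnc* KO and 1.16 (-0.01 to 2.32) with *Cdk8* KO, both with an adjusted p of 1 by edgeR. It was positive under each alternative run (WT replicate 1 could not be left out), with adjusted p from edgeR, DESeq2 or the block between 0.498 and 1 over both knockouts. *Cebpb* had an interaction of 0.61 (-0.09 to 1.31) with *Ccnc* KO and 0.31 (-0.48 to 1.10) with *Cdk8* KO, also with an adjusted p of 1.

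The second question was how the knockouts differed from WT. In the comparison beside treatment, called genes (adjusted p under 0.05 and a fold change above 2 or below 0.5) made up 1.94% of genes in *Ccnc* KO, with none of the members, and 1.05% in *Cdk8* KO, with *Atf3*. In *Ccnc* KO edgeR gave an unadjusted p under 0.05 to 4957 of 18577 genes and to 6 members. DESeq2 called 319 genes and 0 members. At an adjusted p under 0.05 alone, *Trib3* and *Sesn2* were lower in *Ccnc* KO beside 5.28% of all genes, and *Atf3* was higher beside 7.01%. In *Cdk8* KO *Atf4*, *Atf5* and *Trib3* were lower beside 2.03% of all genes, and *Atf3* was higher beside 2.28%. Since these contrasts too were used in the choice, the counts are a description. The DMSO and ATRi libraries of a clone entered this fit as separate samples, so its SEs and shares may overstate the precision. With the clone as a replicate block, 293 of 18577 genes passed both thresholds in *Ccnc* KO and 66 of 18721 in *Cdk8* KO.

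*Atf3* was higher in each of the 6 clones than in every WT library of the same treatment. Under DMSO, clones D1, G2 and H5 were 0.70 to 0.79 above WT on the log2 scale, and B9, H4 and C8 stood at 3.36, 5.48 and 5.30 CPM, 0.67 to 1.37 above WT. Under ATRi, where WT is replicate 1 alone, the differences were 1.19 to 1.35 and 1.75 to 2.58. The fitted log2 fold change was 0.95 (SE 0.15) for *Ccnc* KO and 1.55 (SE 0.30) for *Cdk8* KO. As a description, *Atf3* in *Cdk8* KO passed both thresholds in the full fit, with 197 genes passing. It did not pass without clone C8 (85 genes passing), without WT replicate 2 (101) or with the DMSO libraries alone (4). Nor did it pass with the clone as a replicate block (66), or without WT replicate 1, where WT was the DMSO library of replicate 2 alone. In *Ccnc* KO *Atf3* passed both thresholds without WT replicate 2 (336 genes passing) and with WT replicate 2 under ATRi included (322), but not in the full fit (360).

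Of the other 9 members, all had a negative fitted value in *Ccnc* KO and 8 in *Cdk8* KO, none of them past both thresholds. *Trib3* with DMSO was below both WT libraries in all 6 clones, while with ATRi clone D1 was 0.02 above WT on the log2 scale and the other 5 were below. Over both treatments its fitted log2 fold changes were -0.32 (SE 0.08) and -0.50 (SE 0.08). *Atf4* was -0.27 (SE 0.10) and -0.41 (SE 0.07), with D1 with DMSO within the range of WT. *Atf5* with DMSO stood at 39.9 and 42.7 CPM in WT against 36.2, 37.4 and 35.2 in D1, G2 and H5, and at 40.3 and 40.3 against 33.4, 25.5 and 24.8 in B9, H4 and C8. With DMSO *Atf5* was thus below WT in all 6 clones, and with ATRi in 5, with D1 0.05 above on the log2 scale. Its fitted log2 fold changes over both treatments were -0.18 (SE 0.08) and -0.49 (SE 0.11). *Sesn2* was below WT in all 6 clones with either treatment, with values of -0.37 (SE 0.08) and -0.33 (SE 0.10) in the fits.

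*Chac1* with DMSO was below WT in all 6 clones, and with ATRi in 5, with D1 0.24 above on the log2 scale. Its fitted log2 fold changes over both treatments were -0.34 (SE 0.15) and -0.43 (SE 0.13). *Ddit3* (-0.14, SE 0.12, and -0.21, SE 0.14), *Cebpb* (-0.35, SE 0.17, and -0.20, SE 0.16) and *Nupr1* (-0.30, SE 0.17, and -0.49, SE 0.29) had differences with errors that were large beside them. *Ddit4* had fitted values of -0.07 (SE 0.10) and 0.15 (SE 0.28). In *Cdk8* KO clone H4 stood apart, at 70.9 CPM with DMSO and 60.7 with ATRi, while B9 and C8 stood at 34.9 and 40.6 CPM with DMSO and 31.6 and 29.2 with ATRi. Without H4 the fitted value of *Ddit4* was -0.23 (SE 0.10). The summed markers of primitive endoderm and of fibroblasts were also higher in knockout libraries and those of mESCs mostly lower, and their part in these differences was not tested.

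**Figure D3:**
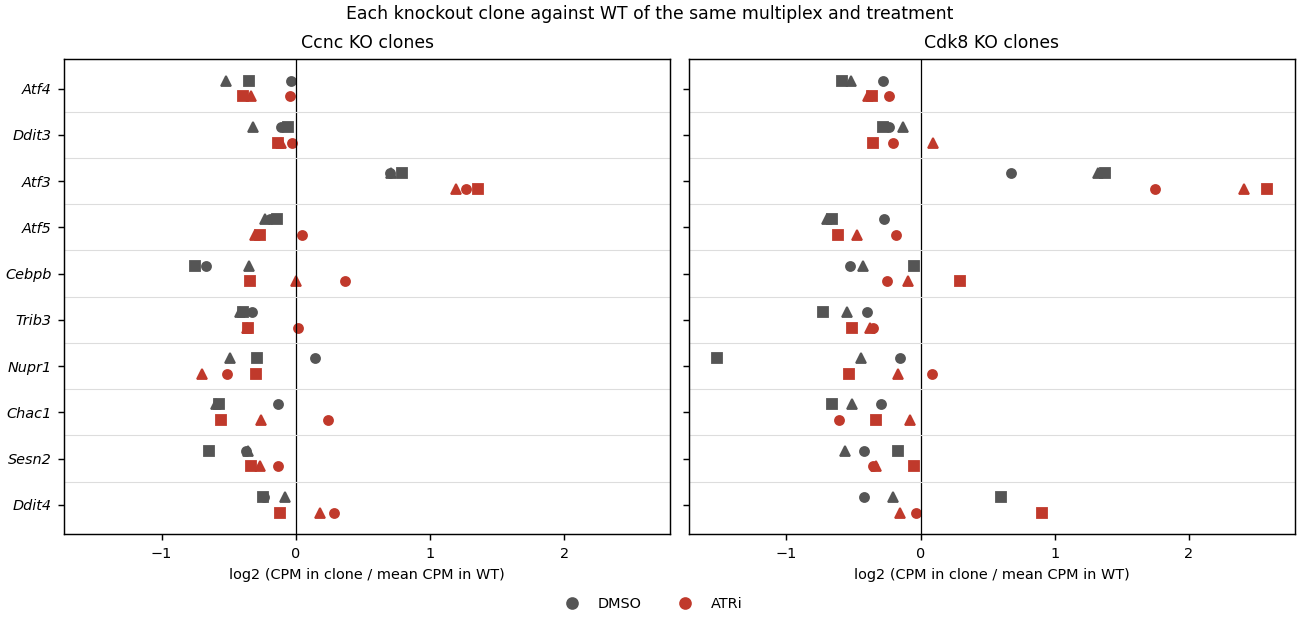
Log2 ratio of CPM in each knockout clone to WT of the same multiplex and treatment (x axis; WT is the mean of 2 libraries with DMSO and replicate 1 alone with ATRi) for each member (y axis). Circles, squares and triangles are clones D1, G2 and H5 (left) or B9, H4 and C8 (right). *Atf3* is above 0 in all clones, and H4 sets the high *Ddit4* and low *Nupr1* values.

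The knockouts were then compared with each other in the 12 knockout libraries, after the difference between multiplexes had been taken from the WT libraries sequenced in both. The DMSO and ATRi libraries of a clone entered as separate samples. No replicate block was run for this comparison, so its intervals and p-values may overstate the precision. Called genes made up 0.00567% of 17630 genes, none of them a member. By edgeR 1924 genes and 3 members had an unadjusted p under 0.05. *Atf3* was -0.56 (95% interval -0.98 to -0.13) in *Ccnc* KO relative to *Cdk8* KO, with an adjusted p of 0.395. *Atf5* was 0.33 (0.12 to 0.54) and *Trib3* 0.24 (0.07 to 0.41), with adjusted p of 0.364 and 0.377. Without clone B9, whose *Atf3* and *Atf5* levels lay nearest to WT among the *Cdk8* KO clones, *Atf3* and *Atf5* were called beside 2.81% of all genes. The intervals for *Atf4* (-0.04 to 0.34), *Ddit3* (-0.23 to 0.32) and *Sesn2* (-0.19 to 0.14) spanned 0.

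**Figure D4:**
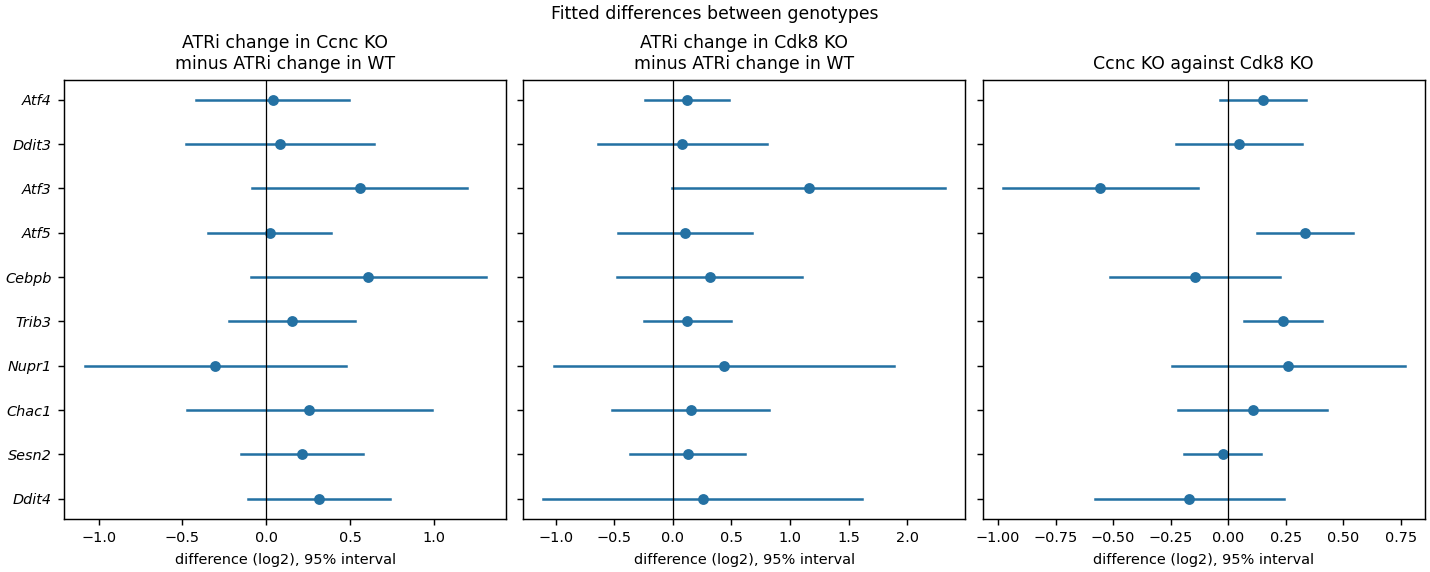
Fitted log2 differences (points) with 95% intervals (lines) for each member (y axis): the ATRi response in *Ccnc* KO minus that in WT, the same for *Cdk8* KO, and *Ccnc* KO against *Cdk8* KO. All intervals of the left and middle panels span 0, and in the right panel those of *Atf3*, *Atf5* and *Trib3* do not, before adjustment. The DMSO and ATRi libraries of a clone entered as separate samples.

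Other genes of the pathway were taken from 5 lists, written with earlier results of these data known. Their values with ATRi and against WT are therefore a description too, and no p-value of a listed gene is printed. Of the 19 tested genes for eIF2 kinases, eIF2, eIF2B and eIF2 phosphatase subunits, 0 were called with ATRi by edgeR in either multiplex. An unadjusted p under 0.05 was given to 1 and 3 of them, beside 3009 of 18577 and 2146 of 18721 genes. DESeq2 called 0 and 1 (*Ppp1cc*, higher). The list medians were 0.05 and 0.04 on the log2 scale. The largest values were 0.17 (*Ppp1cc*, a phosphatase catalytic subunit, in the *Cdk8* multiplex) and 0.15 (*Eif2s3x*, the gamma subunit of eIF2, in the *Ccnc* multiplex). Of 20 other bZIP factors, *Jdp2* was the only one called, lower with ATRi at -1.06 (SE 0.17) in the *Ccnc* multiplex. It stood at -0.85 (SE 0.15) in the *Cdk8* multiplex, where DESeq2 called it but edgeR did not. JDP2 is a repressor related to ATF3. *Jund* had the next largest value, -0.67 (SE 0.54) in the *Ccnc* multiplex, where it lay near the floor at 0 to 0.33 CPM. In the *Cdk8* multiplex it stood at -0.17 (SE 0.56).

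Of 19 other known ATF4 targets tested, 7 were called lower with ATRi in the *Ccnc* multiplex, beside 138 of 18577 genes. In the *Cdk8* multiplex 3 were called lower, beside 9 of 18721 genes, and 0 were called higher in either. The median over the list was -0.17 and -0.22, against -0.01 over all genes in both. The 3 genes called in both multiplexes were *Slc6a9*, a glycine transporter (-1.38, SE 0.14, and -1.62, SE 0.16), *Stc2*, a secreted glycoprotein (-1.05, SE 0.12, and -0.997, SE 0.11), and *Gdf15*, a stress cytokine (-0.87, SE 0.17, and -0.89, SE 0.12). The other 4 in the *Ccnc* multiplex, named after their values were seen, were *Mthfd2*, *Pck2*, *Vldlr* and *Vegfa*. The count in the *Ccnc* multiplex was 3 without clone G2, 2 without WT replicate 1 and 4 with WT replicate 2 under ATRi included. In that order, 25, 21 and 41 of all genes were called in place of 206. The count in the *Cdk8* multiplex was 9 by DESeq2, where 381 of all genes were called in place of 16. It was 10 with the clone as a replicate block, where 2107 were called, and 1 without clone B9, where 4 were. Without clone C8, where 1 of all genes was called, and without WT replicate 1, where 0 were, it was 0.

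Of 9 other known CHOP targets tested, 0 were called with ATRi by edgeR or DESeq2, and 2 and 0 had an unadjusted p under 0.05. Their medians were 0.01 and -0.03, and the largest values were 0.22 for *Bcl2l11* and -0.20 for *Tnfrsf10b*, both death genes. Of 6 paralogues of *Trib3*, *Sesn2*, *Ddit4* and *Chac1*, 0 were called by either tool, 1 and 1 had an unadjusted p under 0.05, and *Trib1* and *Trib2* had the largest values, 0.28 and 0.16 in size. Against WT 0 genes of the lists passed both thresholds by edgeR or DESeq2 in either knockout. In *Ccnc* KO edgeR gave an unadjusted p under 0.05 to 3 to 5 genes of each list, beside 4957 of 18577 genes. In *Cdk8* KO it did so for 0 to 7 genes of each list, beside 3995 of 18721.

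Over the 10 libraries of each multiplex, genes whose log2 CPM followed *Atf4* most closely included *Lck*, *Rasip1*, *Msi2* and *Bag3*, with the lower Pearson r of the multiplexes at 0.948, 0.887, 0.887 and 0.885. Of the members, *Trib3* came at rank 18 (0.841), *Nupr1* at rank 33 (0.815) and *Chac1* at rank 116 (0.750) of 18129 genes. *Ddit3* was followed most closely by *Crlf3* (0.937), *Mthfd2* (0.929), *Rbmx2* (0.902), *Arl14ep* (0.897) and *Hnrnpd* (0.888), with *Chac1* at rank 259 (0.691). *Atf4* and *Ddit3* themselves were at 0.593 and 0.331. These values describe 10 libraries that fall into 4 groups, with WT libraries common to both multiplexes and WT replicate 2 under ATRi included. Among the 45 pairs of members the median r was 0.467 in the *Ccnc* and 0.354 in the *Cdk8* multiplex, and *Atf3* ran against *Atf4* (-0.373 and -0.543).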

How the data were processed

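The 40 samples were lanes of 20 libraries, 10 in each multiplex, with the 4 WT libraries counted once per multiplex. The authors trimmed single-end reads of directional poly(A) libraries with Trimmomatic 0.38, aligned them with HISAT2 2.1.0 to GRCm38.p6, counted reads per gene by strand with featureCounts 2.0.1 and tested with DESeq2; the deposited values are raw read counts per gene and lane. Counting by strand keeps a gene apart from genes on the opposite strand, such as *Mars* beside *Ddit3*. Rlog tables were not used.

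Lanes were summed per library. The quasi-likelihood test of edgeR 4.0.16 (R 4.3.3; TMM, filterByExpr, Benjamini-Hochberg adjusted p under 0.05, for knockout against WT also a fold change above 2 or below 0.5) was fitted per multiplex over all genes passing the filter, with genotype and treatment as terms. The authors dropped WT replicate 2 under ATRi, and so did these fits. CPM used TMM library sizes. For *Ccnc* KO against *Cdk8* KO, an offset per gene from the WT libraries sequenced in both multiplexes was used. Its counting error was added to the standard error after a test on simulated data had given too many false calls. Alternatives were DESeq2 1.42.0, RLE size factors, no filter, libraries left out, DMSO alone, and the clone as a replicate block (limma 3.58.1 for knockout against WT). DESeq2 and the block were not run for *Ccnc* KO against *Cdk8* KO. Both libraries of a clone come from 1 cell line, which is the source of the pairing; their deviations from group means correlated at 0.021 to 0.627 over clones. Nothing says that WT replicates differ by more than culture, so p-values measure the spread between these samples. Intervals from single libraries cover counting error only, and none is given.

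The 10 members and the lists were chosen with earlier results of these data known. Named were all members, the genes of each list called in both multiplexes or else its 2 of largest absolute log2 fold change, the 5 genes most like *Atf4* and *Ddit3*, and *Ccnc* and *Cdk8*. A gene named by this rule is not reported here. *Ddit3* has a second entry of 105 bp, with 0 counts, that overlaps exons of the first on the same strand. Whether reads over that stretch were lost to *Ddit3* was not tested.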

Additional observations from a re-analysis of the deposited data

How the results depend on the processing

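Of the recounts of members called under an alternative, 65 stayed within 1.5 times the value reported and 20 did not, and RLE size factors changed no count. With ATRi in the *Cdk8* multiplex, 2 members were called among 16 genes, against 4 among 381 by DESeq2, 4 among 41 without the filter, 8 among 2107 with the clone as a replicate block and 0 to 4 among 0 to 29 on leaving out a clone or WT replicate. Within *Cdk8* KO clones, 0 became 2 among 58 genes by DESeq2, 2 among 4 without the filter and 7 among 1193 with the clone as a replicate block. Within *Ccnc* KO clones, 3 among 15 genes became 1 to 3 among 3 to 6 on leaving out a clone. In *Ccnc* KO against WT, 0 among 360 genes became 1 among 322 with WT replicate 2 under ATRi included, and 3 among 2284 by adjusted p alone. Leaving out a library gave 0 to 1 (309 to 362 genes without a clone or WT replicate 2). In *Cdk8* KO against WT, 1 (*Atf3*) among 197 became 0 among 66 with the clone as a replicate block and 0 among 4 with DMSO alone. It became 4 among 806 by adjusted p alone, and 0 to 1 on leaving out a library (85 to 455 genes without a clone or WT replicate 2). For *Ccnc* KO against *Cdk8* KO, 0 became 0 to 2, with *Atf3* and *Atf5* called among 498 genes without clone B9. The block changed no interaction call of a member, while over all genes it called 0 in the *Ccnc* and 4 in the *Cdk8* multiplex, where the fit without it called 0. The causes were not tested.

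Small differences changed sign. For the interaction with *Ccnc* KO, including WT replicate 2 under ATRi gave *Atf4* -0.081, *Atf5* -0.14 and *Sesn2* -0.076, the replicate block gave *Atf5* -0.042, and leaving out a library gave -0.025 to 0.136 for *Atf4* and -0.10 to 0.094 for *Atf5*. With *Cdk8* KO, including that library gave *Atf4* -0.013, *Atf5* -0.12 and *Sesn2* -0.19, and leave-outs gave -0.0089 to 0.297 for *Ddit3* and -0.0023 to 0.388 for *Chac1*, both lowest without C8. Between knockouts, leave-outs gave -0.018 to 0.139 for *Ddit3*, -0.246 to 0.021 for *Cebpb*, -0.089 to 0.087 for *Sesn2* and -0.338 to 0.224 for *Ddit4*, each of opposite sign to the full fit without H4, and -0.096 (without D1) to 0.230 for *Chac1*. *Sesn2* was also 0.047 without G2. Depth limits *Atf3* and *Nupr1* most.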
